A study of Syntrichia ruralis with 8 samples.

Results

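The response of transcripts to slow drying was compared between polysomal RNA and total RNA of Tortula ruralis (Syntrichia ruralis), a moss, over 768 cDNA clones. Each clone had a log2 ratio of slow-dried over hydrated gametophytes, the leafy haploid plants, in total RNA and another in polysomal RNA. The value compared was the polysomal log2 ratio minus the total log2 ratio, called the difference here. The comparison used 4 of the 8 2-colour arrays of the study, 2 with total RNA (slides 5 and 6) and 2 with polysomal RNA (slides 93 and 105), and took in all 768 clones, of which 209 had an annotation and 559 had none. The other 4 arrays compared rapid-dried rehydrated gametophytes with hydrated ones.

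All plants had been collected dry and kept hydrated for 48 h. Slow-dried plants were then held for 24 h in a closed chamber at 20 °C and a relative humidity of 66%, where they came to about 20% of their fresh weight within 6 h. The other channel of each array held RNA of the same fraction from plants frozen after the 48 h of hydration. The 2 arrays of a fraction came from separate RNA preparations with the dyes exchanged, slow-dried RNA being in Cy3 on array 1 and in Cy5 on array 2. Each preparation pooled many gametophytes from at least 3 clumps, and total and polysomal RNA came from separate samples. How the polysomal RNA was prepared is not given in the sources used here, and the molecule field of the labels reads total RNA for all arrays. Because each fraction lay on its own slides, and the polysomal scanner files have a format of their own, RNA fraction and slide set cannot be told apart.

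Polysomes are messenger RNAs that carry several ribosomes, so the polysomal pool holds the transcripts engaged in translation when the tissue was frozen. In this desiccation-tolerant moss polysomes are lost as the plant dries and form again on rewetting, and transcripts can be kept in dried tissue outside polysomes. Rehydrins are moss proteins named for a synthesis that rises on rehydration, and LEA (late embryogenesis abundant) proteins, dehydrins among them, accumulate in drying cells of many plants. The clones came from a subtracted library, which selects for some genes over others. Translation itself was not measured. Each probe was made from a set amount of poly(A) RNA and each array was centred, so a loss of polysomes as a whole does not appear in these ratios, which show how clones moved relative to the typical clone. In pooled tissue, fewer cells holding a transcript and less of it per cell cannot be told apart.

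The largest difference upward was that of USD-119, a hypothetical protein of the endonuclease/exonuclease/phosphatase family, followed among annotated clones by USD-450 (a hypothetical protein), the rehydrin Tr-217 and a ribosomal protein L38 clone. Among annotated clones the largest differences downward were those of Toc125, which belongs to the chloroplast protein import machinery, a protease-like clone (USD-279) and the flavoprotein subunit of succinate dehydrogenase. limma called 106 of 768 clones higher in the polysomal response than in the total response (13.8%) and 119 lower (15.5%), at a Benjamini-Hochberg adjusted p under 0.05. The differences ran from -3.08 to 3.54 with a median of -0.09, and 36 called clones, 19 higher and 17 lower, lay beyond 2 on the log2 scale in either direction. The median standard error of a difference was 0.25, and the smallest called difference was 0.69. The median size of a called difference was 1.24.

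The called clones were placed by their response in each fraction. The total log2 ratio enters the difference with its sign turned, so the directions counted next are in large part fixed by the choice of clones and nothing is read from them. Of the 106 clones called higher, 88 were lower in dried total RNA than the typical clone (30.6% of all clones), and in polysomal RNA 37 were called higher (21.0% of all clones), 18 lower (24.5%) and 51 neither. Of the 119 called lower, 91 were higher in dried total RNA (32.4% of all clones), and in polysomal RNA 13 were called higher, 43 lower and 63 neither. The standard deviation of the log2 ratio over clones was 0.87 in polysomal and 1.12 in total RNA, an order that turned after scale normalization between arrays (0.986 and 0.826). limma called 349 clones in polysomal RNA (45.4%) and 484 in total RNA (63.0%). For 230 clones the response was called in the same direction in both fractions, 104 higher and 126 lower. The clones without an annotation had 62 called higher and 94 lower (median difference -0.13), and the annotated clones 44 and 25 (median 0.08).

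**Figure D1:**
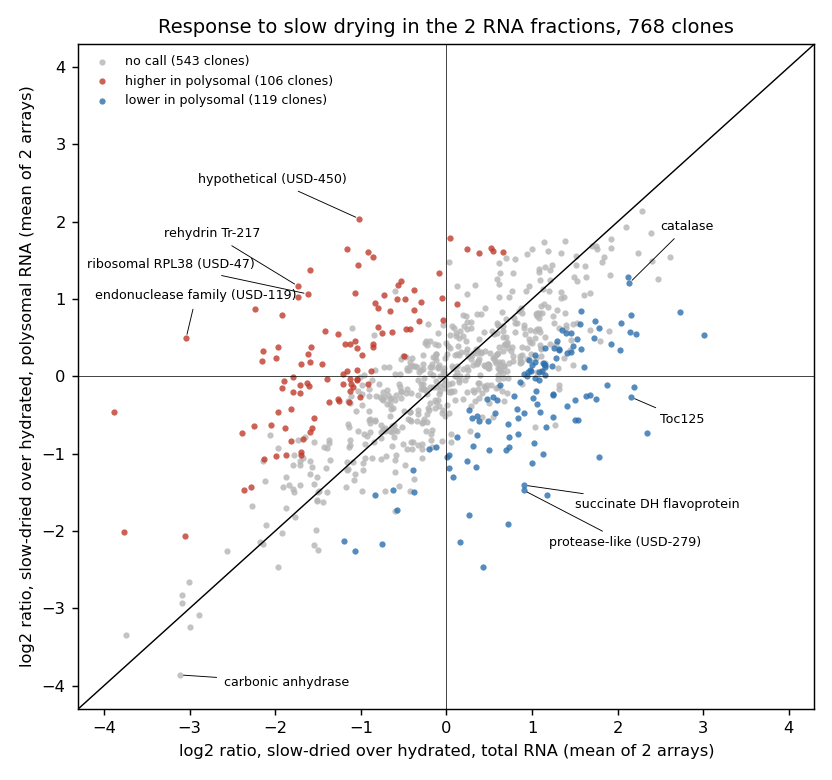
Log2 ratio of slow-dried over hydrated gametophytes in total RNA (horizontal axis) against polysomal RNA (vertical axis), each the mean of 2 arrays, for 768 clones. Red points mark the 106 clones called higher in the polysomal response, blue points the 119 called lower and grey points the 543 others, and the diagonal marks an equal response in both fractions, from which USD-119 and Tr-217 stand off upward and succinate dehydrogenase (succinate DH) downward.

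The plot of polysomal against total log2 ratios shows the called clones on both sides of the diagonal, with carbonic anhydrase low in both fractions. Ratios of the 2 arrays of a fraction correlated across clones at r = 0.87 for total RNA and 0.92 for polysomal RNA, and between fractions at 0.51 to 0.57. On the control scale, on which the 4 ribosomal protein control clones average 0 on each array, all log2 ratios stood 1.49 higher in total RNA and 1.41 higher in polysomal RNA, and the difference of a clone moved by the gap between these shifts. There 597 clones (77.7%) were called higher in dried total RNA and 25 (3.26%) lower, and 627 (81.6%) and 20 (2.60%) in dried polysomal RNA. For the difference limma called 71 clones higher (9.24%) and 75 lower (9.77%), of which 66 and 67 were also called relative to the typical clone. The number of calls depended on single arrays. It fell without total array 2 and without either polysomal array, and it rose without total array 1. Between 82.6 and 95.2% of clones were well above background in the slow-dried channel of these 4 arrays, and between 71.2 and 94.1% in the hydrated channel.

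For 36 clones (4.69% of 768) the response was called in both fractions and in opposite directions, relative to the typical clone. In 20 of them the transcript was lower in dried total RNA and higher in dried polysomal RNA, and 11 of these had an annotation. In 16 it was higher in total RNA and lower in polysomal RNA, and 7 of these had an annotation. Opposite directions depended on the scale, since on the control scale USD-119 was the only one of the 36 still called lower in one fraction (total RNA, -1.55) and higher in the other (polysomal RNA, 1.91). Of the other 35, 15 were called higher in both fractions there, 10 in total RNA alone and 10 in polysomal RNA alone. The difference itself was still called on the control scale for 34 of the 36 clones, and for 26 of them whichever of the 4 arrays was left out.

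The leading clones of the first kind were as follows. USD-119 had log2 ratios of -2.70 and -3.38 on the total arrays and of 0.62 and 0.37 on the polysomal arrays. Its fall in total RNA was thus absent from polysomal RNA, and the difference was 3.54 ± 0.24 (standard error of the limma fit, as for all errors below, n = 2 arrays a fraction; adjusted p = 0.0015), which is 11.6-fold. USD-450 stood at -0.81 and -1.23 in total RNA and at 1.85 and 2.23 in polysomal RNA, a difference of 3.06 ± 0.25 (adjusted p = 0.0015). The rehydrin Tr-217, which the design text lists as a transcript that falls in earlier northern blots, had -1.60 and -1.87 in total RNA and 1.21 and 1.13 in polysomal RNA. Relative to the typical clone its total arrays showed a fall, while both polysomal arrays lay above 0. On the control scale Tr-217 was not called lower in total RNA. Its difference was 2.91 ± 0.26 (limma adjusted p = 0.00151), or 7.51-fold. A clone for L38 (USD-47), a protein of the large ribosomal subunit, had -1.40 and -1.85 in total RNA against 0.96 and 1.17 in polysomal RNA, a difference of 2.69 ± 0.25 (adjusted p = 0.00151).

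Enzymes and a membrane fusion protein followed the same course. USD-117, an alpha/beta-fold hydrolase of unnamed substrate, had -0.84 and -0.99 in total RNA and 1.63 and 1.60 in polysomal RNA (difference 2.52 ± 0.18, adjusted p = 0.0015 in limma). VAMP714, a vesicle SNARE that takes part in membrane fusion, had -1.35 and -0.72 against 1.53 and 1.35 (2.47 ± 0.27, adjusted p = 0.0021), a 5.56-fold difference. The alpha subunit of 2-oxoisovalerate dehydrogenase, which acts in the breakdown of branched-chain amino acids, had -1.30 and -0.83 against 0.87 and 1.29 (2.15 ± 0.21). In each of these 3 the polysomal arrays lay above 0 and the total arrays below it. A grim19 homologue, in other eukaryotes a subunit of mitochondrial complex I, stood at -0.34 and -0.79 against 1.20 and 1.16 (1.75 ± 0.21). An acyltransferase like tafazzin, which remodels cardiolipin (USD-67), had -0.25 and -0.51 against 1.25 and 0.99 (1.50 ± 0.19). ERD4, a protein of the early response to dehydration (USD-514), had -0.26 and -0.69 against 0.43 and 0.80 (1.09 ± 0.24, adjusted p = 0.0199), and a clone like a rice hypothetical protein (USD-96) had a difference of 1.45. The 9 clones of this kind without an annotation were USD-90, USD-184, USD-331, USD-152, USD-747, USD-37, USD-293, USD-365 and USD-743, with differences from 2.97 down to 1.21.

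Of the reverse kind, the flavoprotein subunit of succinate dehydrogenase (USD-421), an enzyme of the citric acid cycle and the respiratory chain, had log2 ratios of 1.31 and 0.51 in total RNA and of -1.22 and -1.60 in polysomal RNA. It was relatively more abundant in dried total RNA and relatively scarcer on dried polysomes, with a difference of -2.32 ± 0.22 (limma adjusted p = 0.0016), or 4.98-fold. The protease-like USD-279 had 0.99 and 0.82 against -1.29 and -1.65 (-2.38 ± 0.21, adjusted p = 0.0015). Mitochondrial aldehyde dehydrogenase (USD-364), which oxidises aldehydes to acids, had 0.43 and 1.04 against -1.08 and -0.76 (-1.65 ± 0.20). For both, the total arrays lay above 0 and the polysomal arrays below it. The amino acid transport protein aat1 (USD-158) had 1.08 and 1.11 against -0.53 and -0.39 (-1.55 ± 0.18). The remaining annotated clones of this kind were the rehydrin Tr-288, described with the rehydrins below, USD-176, an unknown protein (-1.25 ± 0.19, not called without either polysomal array), and USD-248, a hypothetical protein (-1.07). Without an annotation were USD-272, USD-245, USD-24, USD-7, USD-271, USD-277, USD-585, USD-601 and USD-372, with differences from -2.82 to -1.34.

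Relative to the typical clone, other large differences came with a response in 1 fraction. The control scale raised all log2 ratios by 1.49 in total RNA and 1.41 in polysomal RNA, so which fraction responded depends on the scale. Protein phosphatase 2C (USD-542), of a family that in Arabidopsis restrains abscisic acid signalling, had 0.34 and 0.20 in total RNA and -1.72 and -1.86 in polysomal RNA. Its transcript was low, relative to the typical clone, in dried polysomal RNA alone, with a difference of -2.06 ± 0.18 (limma adjusted p = 0.00151). Toc125 (USD-548) had 1.48 and 2.84 against -0.20 and -0.35 and was not well above background in hydrated total RNA. With the processing used here its difference is therefore a bound, at least 5.39-fold lower (limma adjusted p = 0.0142, fitted -2.43 ± 0.48). Its own signal in hydrated total RNA already lay above the limit used for bounds, so the bound equals the fitted fold. The bound does not cover the processing, since the difference of Toc125 ran from -3.80 to -0.36 over all alternatives. A fip1-related clone annotated as responsive to abscisic acid (USD-454) had 1.06 and 2.19 against -0.33 and -0.19 (-1.89 ± 0.43, adjusted p = 0.0214). The 2 total arrays of Toc125 and of USD-454 lay over 1 log2 unit apart, and both calls were lost without total array 2, without polysomal array 1 and without polysomal array 2. The unknown protein USD-440 (-1.80 ± 0.45) and polyamine oxidase, which breaks down polyamines (USD-110, -0.49 and -2.03 against 0.43 and 0.66, 1.81 ± 0.47), were lost under the same 3. A fasciclin-like protein (USD-174), of a family of cell surface glycoproteins, had 0.80 and 1.32 against -0.34 and -0.38 (-1.42 ± 0.22, not called without polysomal array 2). An ABC transporter (USD-745) had -1.58 and -2.01 against 0.18 and -0.20 (1.78 ± 0.20), its fall being called in total RNA and not in polysomal RNA.

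**Figure D2:**
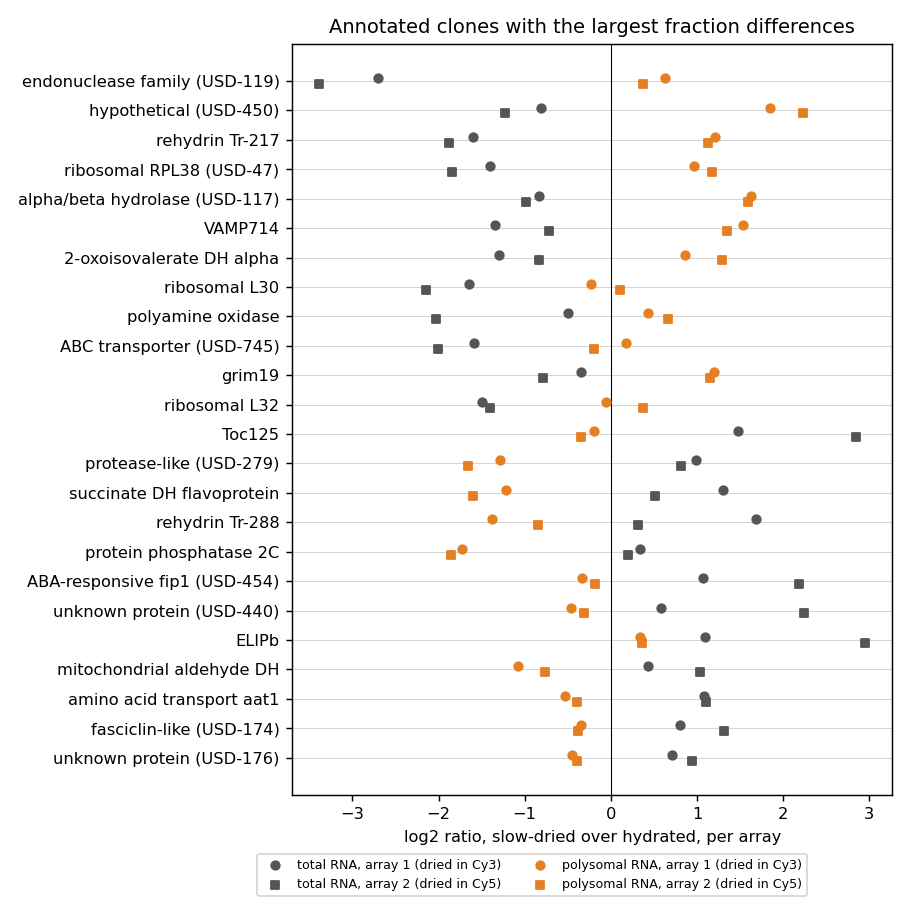
Log2 ratio of slow-dried over hydrated gametophytes on each of the 4 arrays (horizontal axis) for the 24 annotated clones with the largest called differences, 12 higher and 12 lower in the polysomal response (rows). Points are single arrays, 2 of total and 2 of polysomal RNA. In all 24 rows the polysomal points lie to one side of both total points, which the rule for choosing these clones required.

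The plot of the 24 annotated clones by array shows total arrays over 1 log2 unit apart in the rows of Toc125, the fip1-related USD-454, USD-440, ELIPb, Tr-288 and polyamine oxidase. All 24 were called on the control scale and after scale normalization between arrays, and 16 of them were called whichever of the 4 arrays was left out. Non-overlap by itself was common, since both polysomal arrays lay above both total arrays in 251 clones (32.7%) and below them in 292 (38.0%). All 106 clones called higher and all 119 called lower were among these, so non-overlap adds nothing for a called clone.

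Among clones without an annotation USD-72 had the largest difference upward, with -3.67 and -4.09 in total RNA and -0.81 and -0.12 in polysomal RNA (3.42 ± 0.30, limma adjusted p = 0.0015). All 4 arrays lay below 0, those of polysomal RNA closest to it. USD-292 (3.10 ± 0.81, adjusted p = 0.0315) followed, with total arrays as far apart as -1.15 and -3.33. With 1 array left out its difference ran from 1.58 to 4.63, and the call was lost without total array 2, without either polysomal array and without slide 85. Downward, USD-237 had 1.83 and 2.87 against -0.73 and -0.73 (-3.08 ± 0.42, adjusted p = 0.00394). USD-319 had 0.69 and 0.17 against -2.48 and -2.46 (-2.90 ± 0.25), and was one of 9 clones of the whole array called in opposite directions on the control scale. USD-6, above 0 on all 4 arrays, had 2.72 and 3.30 against 0.43 and 0.64 (-2.48 ± 0.31).

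Ribosomal protein transcripts were lower than the typical clone in dried total RNA and less so in dried polysomal RNA. Of 22 ribosomal protein clones 10 were called higher in the polysomal response and 0 lower, with a median difference of 0.67 against -0.09 over all 768 clones, where 13.8% were called higher. Their direction was not uniform, with 17 of the 22 differences above 0 and 5 below it. The median log2 ratio of the 22 was -1.67 in total RNA and -0.83 in polysomal RNA, but -0.18 and 0.58 on the control scale, where 0 were called lower in either fraction and 5 and 10 were called higher. Leaving aside the 4 control clones, 18 clones had the same 10 calls and a median difference of 0.92, and 15 of the 18 lay above 0.

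The called clones encode proteins of the large subunit except for an S3-like clone (USD-357), which is not the control clone S3. They differed among themselves. After L38 (USD-47) came L30, with -1.64 and -2.14 in total RNA and -0.23 and 0.10 in polysomal RNA (1.83 ± 0.25, limma adjusted p = 0.00394). L32 had -1.50 and -1.40 against -0.05 and 0.38 (1.61 ± 0.21, adjusted p = 0.00323). In both, a fall of more than 1 log2 unit in total RNA stood beside polysomal arrays near 0. L1 (1.60), the S3-like clone (1.54) and L13a (1.49) were alike in this. The S3-like clone had -1.28 and -1.96 against 0.10 and -0.27, and L13a had -1.56 and -1.86 against -0.20 and -0.24. In L35 (USD-264, 1.42) and L37 (USD-219, 1.21) the transcript was called lower in both fractions, L35 with -1.84 and -2.27 against -0.61 and -0.65. L34e (0.98) and L18 (0.85) completed the 10.

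Other ribosomal clones showed no such difference. A second clone annotated as L38 (USD-194) had 0.08 and 1.26 in total RNA and -0.46 and -0.17 in polysomal RNA, and its difference of -0.98 was not called (limma adjusted p = 0.106), so the 2 L38 clones lay on opposite sides of 0. The clones of L5 (USD-213, 0.34, and USD-282, -0.64), L10A (-0.37), L27a (0.08), S24 (0.51), L28 (0.56) and S25 (0.77, adjusted p = 0.0534) did not pass either. The 4 control clones, chosen by the study as steady transcripts, had differences of 0.28 (L17), 0.33 (S14), -0.18 (S16) and -0.11 (S3), and none was called, although S3 was after scale normalization. A spotted cDNA may also hybridise with transcripts of related genes, and whether this touched the ribosomal clones was not tested.

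**Figure D3:**
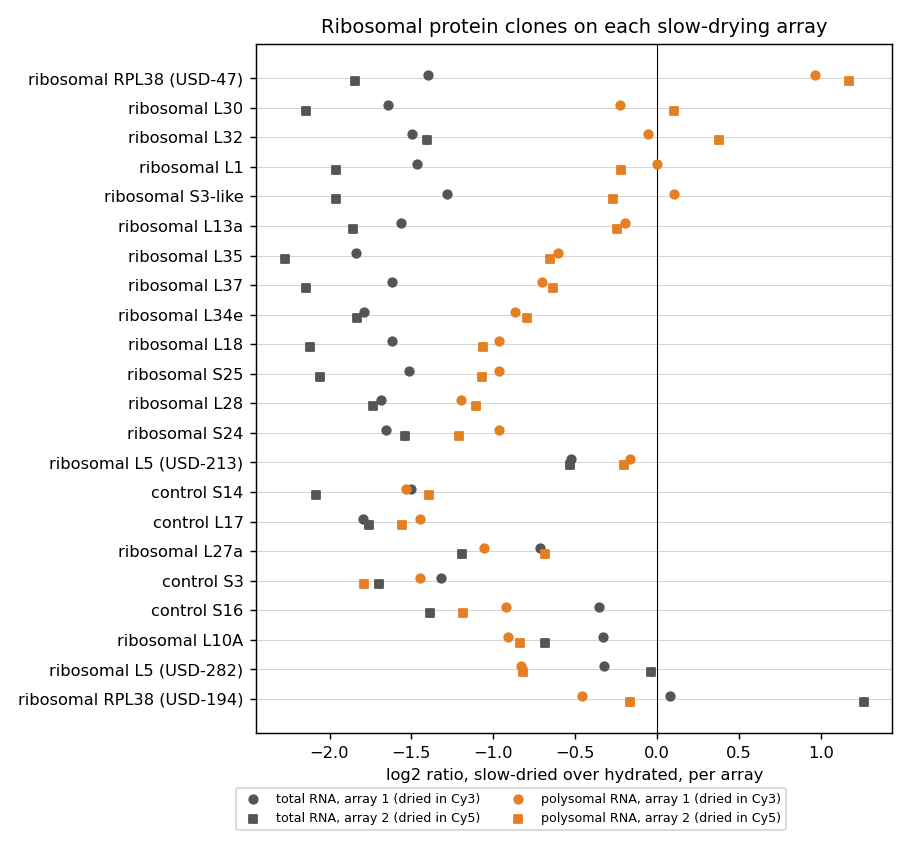
Log2 ratio of slow-dried over hydrated gametophytes on each of the 4 arrays (horizontal axis) for the 22 ribosomal protein clones (rows), ordered by their difference. Points are single arrays of total or polysomal RNA, and the polysomal points lie above both total points in the clones from L38 (USD-47, 2.69) down through L30 and L32, while the second L38 clone (USD-194, -0.98) lies at the other end.

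The plot of ribosomal clones by array shows that the total arrays of nearly all of them lay below 0. The same 8 clones of the 10, all but L34e and L18, were called on the control scale and after scale normalization, and under the latter the L5 clone USD-282 and the control clone S3 (-0.71, limma adjusted p = 0.0352) were called lower. Without polysomal array 1, and also without polysomal array 2, 6 of the 10 were called, and in the authors' deposited ratios only L38. Of the 3 translation factors, elongation factor 1 alpha, which brings aminoacyl-tRNA to the ribosome (USD-189), had -1.37 and -1.36 in total RNA and -0.27 and -0.38 in polysomal RNA (1.04 ± 0.19, limma adjusted p = 0.0116, not called on the control scale). An eIF4-gamma domain protein (-0.76, adjusted p = 0.056) and elongation factor 2 (-0.14) did not pass.

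Photosynthesis transcripts, which mark the green tissue the labels name, were present, and 3 of 5 of them fell strongly in both fractions, on the control scale too. The light-harvesting chlorophyll a/b-binding protein had -2.15 and -4.03 in total RNA and -3.16 and -2.70 in polysomal RNA, and these arrays overlapped (difference 0.16 ± 0.56). Photosystem I subunit III had -2.70 and -3.30 against -3.53 and -2.96 (-0.25), also overlapping. Carbonic anhydrase, which turns carbon dioxide into bicarbonate and back, had -2.97 and -3.25 against -4.14 and -3.58. Its polysomal arrays lay below its total arrays, but the difference of -0.75 ± 0.26 did not pass (limma adjusted p = 0.0696). With the stay-green protein (-0.30) and Toc125, 0 of 5 chloroplast clones were called higher and 1 lower (13.8% and 15.5% over all clones). After scale normalization between arrays 3 of the 5 were called lower (132 of all 768), Toc125, carbonic anhydrase and photosystem I subunit III, with a median of -1.47. Carbonic anhydrase was also called lower with the median of the 3 spots and among clones well above background. In the authors' deposited ratios 0 of the 5 were called.

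The early light-inducible proteins, thylakoid proteins linked to photoprotection, rose in dried total RNA and had smaller log2 ratios on polysomes. ELIPA had 1.35 and 1.56 in total RNA and 0.53 and 0.58 in polysomal RNA (-0.90 ± 0.22, limma adjusted p = 0.0251, not called on the control scale). ELIPb had 1.09 and 2.95 against 0.34 and 0.36 (-1.67 ± 0.47, adjusted p = 0.0407). Both were called lower (15.5% over all clones). Their polysomal arrays lay below both total arrays, as in all 119 clones called lower. The total arrays of ELIPb lay far apart, and its difference ran from -2.56 to -0.79 with 1 array left out. Neither clone was called with only the 4 slow-drying arrays. Neither was well above background in both channels of all 4.

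Of 5 clones of LEA proteins and dehydrins, 2 were called lower (15.5% over all clones) and 0 higher, with a median difference of -0.57. The Lea clone USD-165 had 0.52 and 1.06 in total RNA and -0.10 and -0.41 in polysomal RNA (-1.04 ± 0.25, limma adjusted p = 0.0248). USD-161 had 0.95 and 1.67 against 0.26 and 0.43 (-0.97 ± 0.24, adjusted p = 0.0262). Relative to the typical clone their rise was called in total RNA and not in polysomal RNA. On the control scale all 5 clones of the list were called higher in both fractions (median 2.27 in total and 1.15 in polysomal RNA), and neither difference was called. The remaining Lea clone, USD-397 (-0.57, adjusted p = 0.0603), the dehydrin LTI30/XERO2 (-0.20) and the desiccation protein pcc13-62 (-0.18) did not pass.

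The rehydrins and the other earlier cDNAs, labelled Tr, split. Of 8 clones 3 were called higher and 1 lower (13.8% and 15.5% over all clones), with a median difference of -0.16. Beside Tr-217, Tr-416 had -2.73 and -3.39 in total RNA and -2.06 and -2.08 in polysomal RNA (0.99 ± 0.25, limma adjusted p = 0.03), a transcript that fell in both fractions and less on polysomes, but whose difference turned to -0.08 after scale normalization (adjusted p from 0.0117 to 0.744 over all alternatives). Tr-421, listed by the design text as a transcript that rises, had -1.51 and -1.89 against -0.89 and -1.14 (0.69 ± 0.19, adjusted p = 0.0407). It lay below the typical clone on all 4 arrays. The difference of Tr-421 was not called on the control scale, after scale normalization or with only the 4 slow-drying arrays. Tr-288 had 1.68 and 0.32 against -1.38 and -0.85 and was not well above background in dried polysomal RNA. With the processing used here its difference is therefore a bound, at least 3.04-fold lower (limma adjusted p = 0.0152, fitted -2.11 ± 0.43). It was not called without polysomal array 1, and its difference ran from -3.69 to -1.01 over all alternatives. A second cDNA of Tr-288 (USD-231) stayed above 0 on all arrays, with 1.66 and 1.11 against 0.94 and 0.71 (-0.56, adjusted p = 0.0844), so the 2 cDNAs of this gene gave different values in polysomal RNA.

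Of the remaining Tr clones the rehydrins did not pass. Tr-155 had 0.20 and 0.70 in total RNA and -0.06 and -0.22 in polysomal RNA (-0.59, limma adjusted p = 0.117), and Tr-403 (-0.22) and Tr-418 (-0.11) stood closer to 0. Tr-cpk, a calcium-dependent protein kinase that the design text lists as a steady control, had -0.28 and -0.47 against -1.46 and -1.52. It was not well above background in hydrated total RNA. The difference was called as a bound, at least 2.16-fold lower with the processing used here (limma adjusted p = 0.0167), and ran from -2.34 to -0.77 over all alternatives. On the control scale Tr-217 and Tr-288 were the rehydrins still called.

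Of 12 clones of antioxidant, glutathione and aldehyde enzymes 4 were called lower (15.5% over all clones) and 0 higher, with a median difference of -0.29 and 6 differences on each side of 0. Catalase, which breaks down hydrogen peroxide, rose in both fractions and less on polysomes, with 1.70 and 2.57 in total RNA and 1.14 and 1.28 in polysomal RNA (-0.93 ± 0.22, limma adjusted p = 0.0348). Dehydroascorbate reductase, which regenerates ascorbate (USD-202), had 0.85 and 1.46 against -0.07 and 0.10 (-1.14 ± 0.23, adjusted p = 0.0146), and its rise was called in total RNA and not in polysomal RNA. A second clone of it (USD-154, -0.63) was not called. Of the glyoxalase family, a lactoylglutathione lyase clone (USD-102) had 1.22 and 1.02 against -0.11 and 0.26 (-1.05 ± 0.24). Mitochondrial aldehyde dehydrogenase completed the 4. On the control scale the aldehyde dehydrogenase and USD-202 were called lower and an H-type thioredoxin, a small disulfide reductase (1.30, adjusted p = 0.0635 relative to the typical clone), was called higher. A clone annotated as glyoxalase I, USD-190 (1.05, adjusted p = 0.0611), lay above 0 as well, and without total array 1 both it and the thioredoxin were called higher.

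Of the 14 clones matched as transport and vesicle proteins 4 were called higher (13.8% over all clones) and 0 lower, with a median difference of 0.52. The amino acid transport protein aat1, called lower at -1.55, was not matched by the search pattern of this list. Besides VAMP714 and the ABC transporter USD-745 these were a MATE efflux membrane protein (USD-126, -0.17 and -0.47 in total RNA, 0.69 and 0.76 in polysomal RNA, 1.04 ± 0.21) and a hypothetical membrane protein (USD-367, -1.64 and -1.76 against -0.97 and -0.99, 0.72 ± 0.21). On the control scale VAMP714 and USD-745 alone of the 4 were called. A second ABC transporter clone had a difference of -0.51 and was not called.

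Of 10 signalling proteins 3 were called higher and 2 lower (13.8% and 15.5% over all clones), with a median of 0.20. Mob1/phocein (USD-133), a kinase-activating adaptor in yeast and animals, fell in both fractions, with -2.22 and -2.28 in total RNA and -0.81 and -0.49 in polysomal RNA (1.60 ± 0.26, limma adjusted p = 0.0065). SnRK1-interacting protein 1, named for binding an energy-sensing kinase (USD-543), fell as well, with -2.31 and -2.41 against -1.29 and -1.66 (0.89 ± 0.22). Both fell less on polysomes relative to the typical clone. On the control scale mob1/phocein was called lower in total RNA and higher in polysomal RNA, and the difference of USD-543 was not called. USD-229, with a serine/threonine phosphatase domain and not well above background in hydrated total RNA, was called lower there (limma adjusted p = 0.0268, against 0.0912 relative to the typical clone), which made 1 clone higher and 3 lower. An ATP/GTP-binding protein (USD-499) was called higher but not well above background, so no fold is given. Protein phosphatase 2C and Tr-cpk were the 2 called lower.

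The other lists had few calls. Of 13 clones of carbohydrate and energy metabolism 2 were called higher, grim19 and a zinc-binding alcohol dehydrogenase (USD-312, -1.46 and -1.75 against -0.34 and 0.10, 1.49 ± 0.24), and 2 lower, succinate dehydrogenase and mitochondrial aldehyde dehydrogenase, which is also counted above (median -0.18). Of 11 lipid and hydrolase enzymes 2 were called higher, USD-117 and USD-67, and 1 lower, a soluble epoxide hydrolase (USD-766, -1.22 and -1.17 against -2.00 and -2.26, -0.93 ± 0.23), with a median of 0.63. The epoxide hydrolase fell in both fractions and further on polysomes. Of 11 abscisic acid, dehydration and senescence clones ERD4 was called higher and both fip1-related clones lower (USD-405 with 0.33 and 0.29 against -0.62 and -1.19, -1.22 ± 0.22). Of 12 chaperones and protein turnover clones a cystatin, an inhibitor of cysteine proteases (USD-191), was called higher (1.01 ± 0.21, limma adjusted p = 0.0171) and USD-279 lower. The differences of the epoxide hydrolase, ERD4 and the cystatin were not called on the control scale. The chaperones Hsp70 (0.21) and Hsp90 (-0.26) were not called on either scale. Of the 4 transcription and RNA-binding clones none was called relative to the typical clone. DBF1, an AP2-domain factor not well above background in hydrated total RNA, had a fitted difference of -1.48 (adjusted p = 0.0616) and was called lower on the control scale (-1.56, adjusted p = 0.0126). Over all 768 clones 29.3% were called in either direction.

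Enzymes of photorespiration and amino acid metabolism gave further pairs. Of 3 photorespiration clones 1 was called higher (13.8% over all clones) and 1 lower (15.5%), the latter being catalase, given above. The third, USD-422 (0.26), was not called. GLU2, a ferredoxin-dependent glutamate synthase that assimilates ammonium (USD-11), had -2.20 and -1.73 in total RNA and -0.30 and -0.63 in polysomal RNA (1.50 ± 0.27, limma adjusted p = 0.0106). Glutamate decarboxylase, which makes gamma-aminobutyrate (USD-216), had -0.86 and -1.28 against 0.40 and 0.50 (1.52 ± 0.22, adjusted p = 0.00478). A second glutamate decarboxylase clone (USD-735, 0.66, limma adjusted p = 0.145) was not called. Where an annotated gene had several clones, their values often differed: the alpha/beta-fold hydrolases had 2.52 and 0.63, the fasciclin-like clones -1.42 and -0.83 and the DAHP synthase clones 0.96 and -0.05. The AWPM-19 clones (0.23 and 0.46), trehalase (0.06 and -0.95) and glyceraldehyde-3-phosphate dehydrogenase (-0.86 and -0.23) had no called member.

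**Figure D4:**
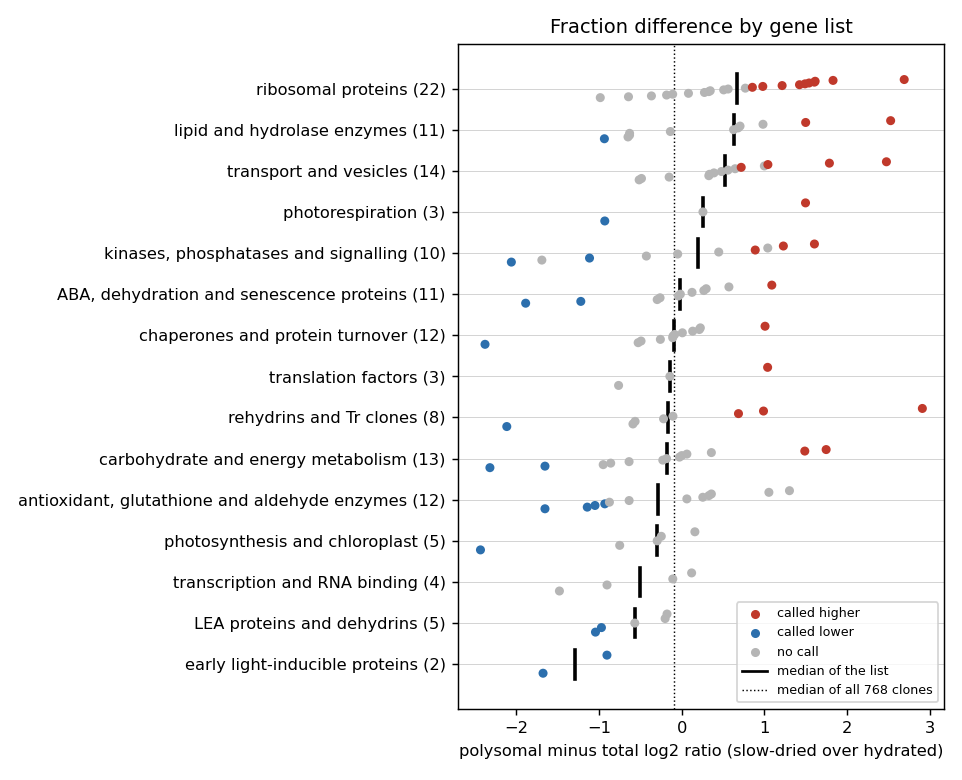
Difference of the slow-drying response, polysomal minus total log2 ratio (horizontal axis), for the members of the 15 lists (rows). Points are clones, the bar in each row is the list's median, and the dotted line is the median over all 768 clones (-0.09), with ribosomal proteins (0.67), lipid and hydrolase enzymes (0.63) and transport (0.52) above it and early light-inducible (-1.29) and LEA proteins (-0.57) below it.

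The plot of differences by list shows that members of most lists lay on both sides of the median clone. The lists overlap, and a list's median describes its members and no others, since the clones were selected by subtraction.

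Where the difference arose in the 4 RNA states was described from each channel's normalized log2 signal, with no test, because the fractions lay on different slides. The 106 clones called higher had a median signal 1.11 log2 units lower in hydrated polysomal than in hydrated total RNA, with 86 of the 106 lower. In dried RNA their median was 0.40 higher in the polysomal fraction, with 68 of 106 higher. The 119 clones called lower ran the other way, with a median 0.61 higher in hydrated polysomal RNA (84 of 119 higher) and 0.50 lower in dried polysomal RNA (76 of 119 lower). For the 543 clones not called the medians were 0.20 and 0.16. Of these 543, 227 were lower and 316 higher in hydrated polysomal RNA, and 244 lower and 299 higher in dried polysomal RNA. Over all 768 clones 348 were lower in hydrated and 410 higher in dried polysomal RNA. The hydrated plants thus differed between fractions at the called clones too. Since the hydrated signal enters the difference with its sign turned, the medians and counts of called clones are in part fixed by their choice.

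Single clones show the course. The log2 signal of Tr-217 was 14.32 in hydrated total RNA, 12.59 in dried total RNA, 11.70 in hydrated polysomal RNA and 12.87 in dried polysomal RNA, so that the fractions stood closer in dried than in hydrated plants. L38 (USD-47) went in the same way, from 13.93 to 12.31 in total RNA and from 11.64 to 12.71 in polysomal RNA. VAMP714 was already higher in hydrated polysomal RNA (13.02 against 11.67 in total RNA) and stood at 14.46 and 10.63 after drying. Succinate dehydrogenase went from 10.25 to 11.16 in total RNA and from 11.82 to 10.41 in polysomal RNA, which exchanged the order of the fractions.

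**Figure D5:**
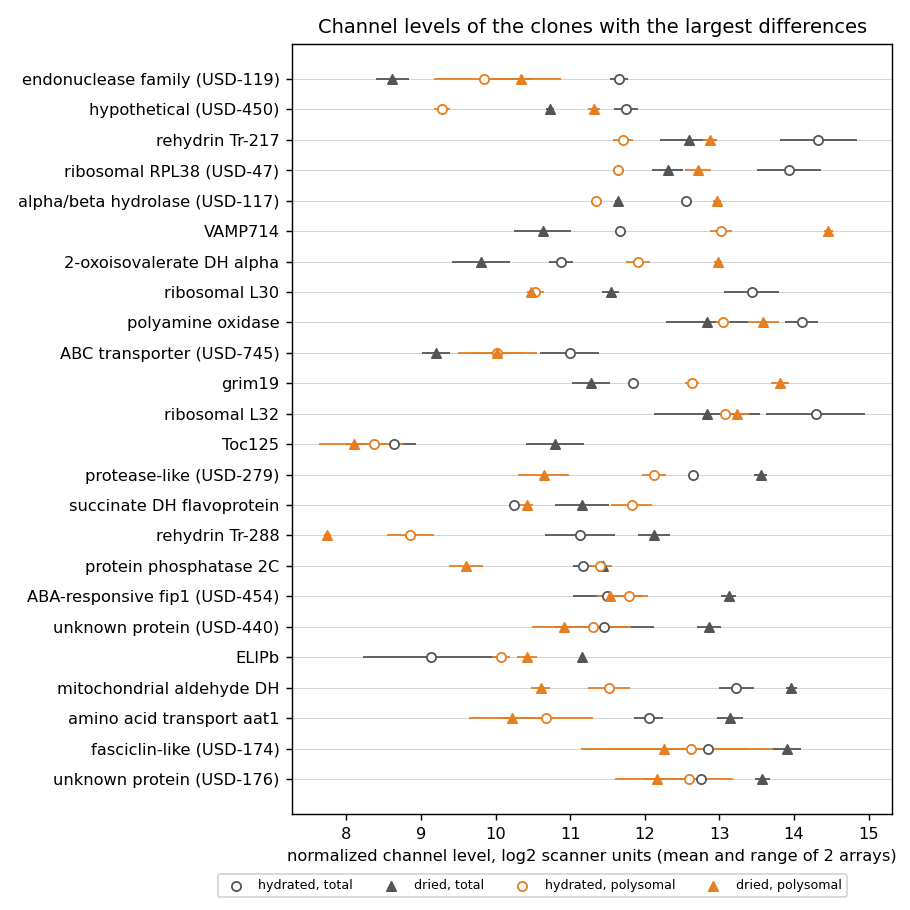
Normalized log2 signal in scanner units (horizontal axis) of the 24 annotated clones with the largest called differences (rows) in hydrated and slow-dried gametophytes, in total and polysomal RNA. Points are means of 2 arrays and lines their range, and Tr-217 falls from 14.32 to 12.59 in total RNA and rises from 11.70 to 12.87 in polysomal RNA.

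The plot of signals in the 4 RNA states places each clone only against itself, since brightness differs between probes.

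The same difference was computed for plants dried rapidly and rewetted for 2 h, on the other 4 arrays. Of their 2 polysomal arrays, slide 85 is slow-dried by its title but rehydrated by its source name and protocol. The hydrated RNA of these arrays may be shared with the slow-drying arrays, so the values are set side by side without an overlap or correlation. In rehydrated plants limma called 111 clones higher in the polysomal response (14.5%) and 119 lower (15.5%), together 230 (29.9%), with a median of -0.06. On the control scale these counts were 43 (5.60%) and 101 (13.2%). USD-119 had a difference of 3.54 in slow-dried and 2.46 in rehydrated plants, USD-450 3.06 and 1.13, Tr-217 2.91 and 1.16, and L38 (USD-47) 2.69 and 2.10. Each was called in both. Succinate dehydrogenase had -2.32 and -2.70, USD-279 -2.38 and -1.33, protein phosphatase 2C -2.06 and -1.04, and mitochondrial aldehyde dehydrogenase -1.65 and -1.33, also called in both. Whether the slow-drying difference itself differed from the rehydration difference was tested as a difference of differences, which limma called for 1 clone upward (0.130%) and 1 downward (0.130%), with 147 clones at an unadjusted p under 0.05. None of the clones named in this paragraph was called in this test, with Tr-217 at a limma adjusted p of 0.129 and USD-450 at 0.077.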

How the data were processed

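Per the labels, probes were made from poly(A) RNA and each array was hybridised with a slow-dried (or rehydrated) and a hydrated sample. The deposited scanner files hold spot intensity and local background intensity for either channel, in arbitrary units and not normalized, per the file headers. They also hold a deposited spot flag of another kind, whose meaning, like the scanner and image software, is not given in the sources used here. The authors' deposited table gives for every array 1 ratio (treated over hydrated) per clone, and its values show that the median of the 4 control clones was set to 1 (0.99 to 1.00), with array medians from 2.02 to 4.81. Across clones these ratios correlated at 0.71 to 0.97 with those computed here, and were used as an alternative.

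Mean spot signals were corrected by normexp (offset 50), log2 ratios were formed per spot and centred within each array by global loess (span 0.3, 4 iterations), which puts the typical clone at 0, and the 3 spots per clone were averaged. limma 3.58.1 in R 4.3.3 was fitted over all 8 arrays, with 4 coefficients and a dye term (3 residual degrees of freedom, 6.41 after moderation), and contrasts were tested two-sided with Benjamini-Hochberg adjustment over 768 clones. Standard errors pool the spread over all 8 arrays. P-values measure the spread between these RNA preparations, and the number of arrays limits the precision. The control scale shifts each array so that the 4 control clones average 0. The labels and the design text name different genes for 2 of these 4. Signals of single channels were normalized by loess and Aquantile over the 4 arrays.

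A clone was well above background when its mean signal exceeded background by 2 background SD. Where it did not in a channel of both arrays of a fraction, the difference was recomputed with that channel raised to the lowest signal well above background where it lay under it, and is given as a bound, or without a fold where none could be set. Where the dim signal already lay above that limit (Toc125 and Tr-cpk) the bound equals the fitted fold. A bound allows for dim signal in this fit alone. Some alternatives gave smaller differences for Toc125, Tr-288, Tr-cpk and USD-74. Slide 85 is slow-dried by its title but rapid-dried and rehydrated by its source name and protocol. The array was taken as rehydrated. It touches the slow-drying difference only through the shared spread, but enters the rehydration difference and the difference of differences directly. Slide 3 of rehydrated total RNA had 42.4% of clones above background in the hydrated channel.

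The clones, the 15 lists (search patterns on the annotation text, with 9 false matches taken out) and the rule for naming clones were chosen with earlier results of these data known. Named were the 12 annotated clones with the largest called differences in each direction, 1 clone per annotated gene, 6 in each direction without an annotation, all clones called in opposite directions, list members that were called and up to 4 more per list, all clones of repeated annotations, and the control and Tr clones. The 12 and the 6 were taken only from called clones whose polysomal arrays both lay on the same side of both total arrays. The scripts were tested on simulated data. Sequences of the clones were not used here.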

Additional observations from a re-analysis of the deposited data

Results flagged for a closer look

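For 2 clones without an annotation the polysomal minus total difference itself differed between slow-dried and rehydrated plants, by the difference of differences in limma over all 768 clones. USD-135 had log2 ratios of 1.23 and 1.39 in total RNA and of 0.33 and 0.37 in polysomal RNA of slow-dried plants, and its difference was -0.96 there and -3.15 in rehydrated plants, so the difference of differences was 2.18 ± 0.27 (adjusted p = 0.0491). USD-74 had 1.72 and 1.77 against -0.34 and -0.24 and was not well above background in hydrated total RNA. Its fitted difference was -2.04 in slow-dried plants, at least 3.65-fold lower with the processing used here, and 0.62 in rehydrated plants. The difference of differences was -2.66 ± 0.29 (limma adjusted p = 0.046). Over all alternatives its slow-drying difference ran from -2.34 to -0.84. Both clones lay just under the threshold, and on the control scale neither was called. Both also rest on slide 85, whose title reads slow-dried.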

How the results depend on the processing

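Relative to the 106 clones called higher and 119 lower, the count of lower calls moved by over 1.5 times on the control scale (75). There the responses had 597 higher and 25 lower in total RNA and 627 and 20 in polysomal RNA, the rehydration difference had 43 higher, and the difference of differences 0 and 0, with limma. Fewer clones were called with only the 4 slow-drying arrays (69 higher and 68 lower) and without slide 85 (68 and 62). Leaving out 1 array of the comparison gave 36 to 118 higher and 26 to 143 lower, the lone array being assumed to vary like the others. Without within-array normalization 9 and 8 were called, in the authors' deposited ratios 12 and 13 of 766, and in those ratios centred on each array's median 19 and 12, with 61.3% of calls upward against 47.1%. The causes were not tested. Median centring, scale normalization, other offsets, no background correction, filters on dim clones and flagged spots, the median of spots, no dye term and median pixel signal (added after seeing the data) kept both counts within 1.5 times. Of the 225 called clones, at least 223 kept their sign in each alternative that tested all of them, 52 were called whichever array was left out, and 8 under all alternatives that tested them, USD-119, Tr-217, L38 (USD-47), USD-279, USD-72, USD-90, USD-237 and USD-245. Of the clones followed singly, Tr-416 was the one called clone whose difference reversed (-0.0839 after scale normalization). Print-tip loess was not run because the files used here give no print blocks. No paired analysis was possible because the replicate numbers were assigned here and pair no samples. In 19 called clones a channel was well above background on neither array of a fraction, and 11 of them were given as bounds and 8 without a fold. The filter on dim clones was stricter. It kept 478 clones, well above background in both channels of all 4 arrays, and 161 of the 225 called clones were among them.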

Other observations

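Some clones stood far apart between the fractions in both hydrated and dried plants. By normalized log2 signal, and counting only clones well above background in each of the 4 RNA states on at least 1 array, 9 clones were over 2 units higher in polysomal than in total RNA in both states and 31 were over 2 units lower. Of these 40, 13 had a called difference in their response. These levels come from different slides and were not tested. The cystatin clone USD-191 stood at -4.62 in hydrated and -3.61 in dried plants as polysomal minus total signal. A cellulose synthase-like A2 clone (USD-263) stood at -4.01 and -2.77, and its response differed between fractions by 1.24 ± 0.25 (limma adjusted p = 0.0147). A putative GTP-binding protein (USD-132) stood at -2.86 and -2.91, and its response had no called difference.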
